A study of Saccharomyces cerevisiae with 8 samples.

Results

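The genes described here encode proteins of the small subunit processome and of the snoRNPs, the protein-RNA particles that build and modify ribosomal RNA in the nucleolus of budding yeast (Saccharomyces cerevisiae). They were chosen as 52 gene identifiers of known role, with no threshold on any value, out of 6692 identifiers in the deposited count table. The list holds the box C/D and H/ACA snoRNP proteins, the UTP family of U3-associated proteins and other factors of the 90S pre-ribosome. Libraries of 4 kinds were made from cells grown in YEPD at 30 °C to an OD600 of 0.6, all of which received 100 ug/ml cycloheximide, a drug that stalls elongating ribosomes, 2 min before harvest. They were footprints of single ribosomes (monosomes), footprints of ribosomes from mRNAs that carry several (polysomes), footprints of all ribosomes in the extract (global), and fragmented mRNA, with 2 libraries each. A footprint is the stretch of mRNA that a ribosome shields from RNase I, here 26 to 32 nt, and the mRNA fragments were 20 to 45 nt. The labels name neither the strain nor separate cultures, so the spread between the 2 libraries of a group may be technical. The p-values below rest on an estimate of that spread that all 4 groups share, not on the 2 groups compared alone.

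As background, the small subunit processome assembles on the nascent pre-rRNA around the U3 snoRNA, a box C/D RNA that base-pairs with the transcript, and prepares the cuts that release the small subunit rRNA. UTP-A and UTP-B subcomplexes bind the leading end of the transcript, further factors join as the rRNA domains fold, and helicases later take the particle apart. Box C/D particles direct 2′-O-methylation and H/ACA particles direct pseudouridylation of rRNA. In yeast most of these proteins are essential, and their mRNAs belong to a large set of ribosome biogenesis genes that growing cells express together.

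The deposited totals were 4723489 and 6443263 counts in monosome libraries, 8686385 and 7494965 in polysome libraries, 749057 and 552992 in global libraries and 933252 and 672928 in mRNA libraries. The 52 genes took 0.886% to 1.08% of the footprint counts and 0.558% and 0.597% of the mRNA counts. All 52 passed the low-count filter. Their lowest count in a library was 107 in monosomes, 170 in polysomes, 23 in global footprints and 3 in mRNA, and 16 and 21 of them had under 20 fragments in the mRNA libraries, so mRNA values are the least precise. Across the 52 genes, Pearson's r of log2 CPM (each count divided by its library size) between the 2 libraries of a group was 0.993 for monosomes, 0.997 for polysomes, 0.977 for global footprints and 0.963 for mRNA, as a description over genes. None of the 52 overlaps another gene of the R64 reference table. The 684 identifiers of the count table without a match there could not be checked for overlap with the 52. Levels are given below as CPM after TMM scaling, which removes differences in library composition, and are compared between genes only per kb of coding length.

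Per kb, all 8 snoRNP core genes lay above all other listed genes in global and in polysome footprints, but not in monosomes, where EMG1 (183 CPM per kb) lay above NOP58 (153 CPM per kb), nor in mRNA, where GAR1 (58.0 CPM per kb) lay below PWP2 (186 CPM per kb). In global footprints the median of the 52 genes was 56.9 CPM per kb, against 25.9 CPM per kb over 5264 tested genes with a known length. SNU13 (YEL026W), the RNA-binding protein that the box C/D particle shares with the U4 spliceosomal particle, led with 1886 CPM per kb in global footprints. NOP10 (YHR072W-A), NOP1 (YDL014W) and NHP2 (YDL208W) followed at 734, 660 and 551 CPM per kb. The lowest was DHR2 (YKL078W), a DEAH-box helicase, at 17.3 CPM per kb. In mRNA the highest and lowest genes lay 198-fold apart, where the lowest level rests on 5 and 3 fragments. The range was 109-fold in global footprints, 300-fold in polysomes and 848-fold in monosomes. CBF5 (YLR175W), the pseudouridine synthase of H/ACA particles, had 732 CPM per kb and SAS10 (YDL153C), an Mpp10-binding processome factor, 3.70 CPM per kb, with a median of 29.8 CPM per kb over the 52 genes and of 21.2 CPM per kb over the tested genes.

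**Figure D1:**
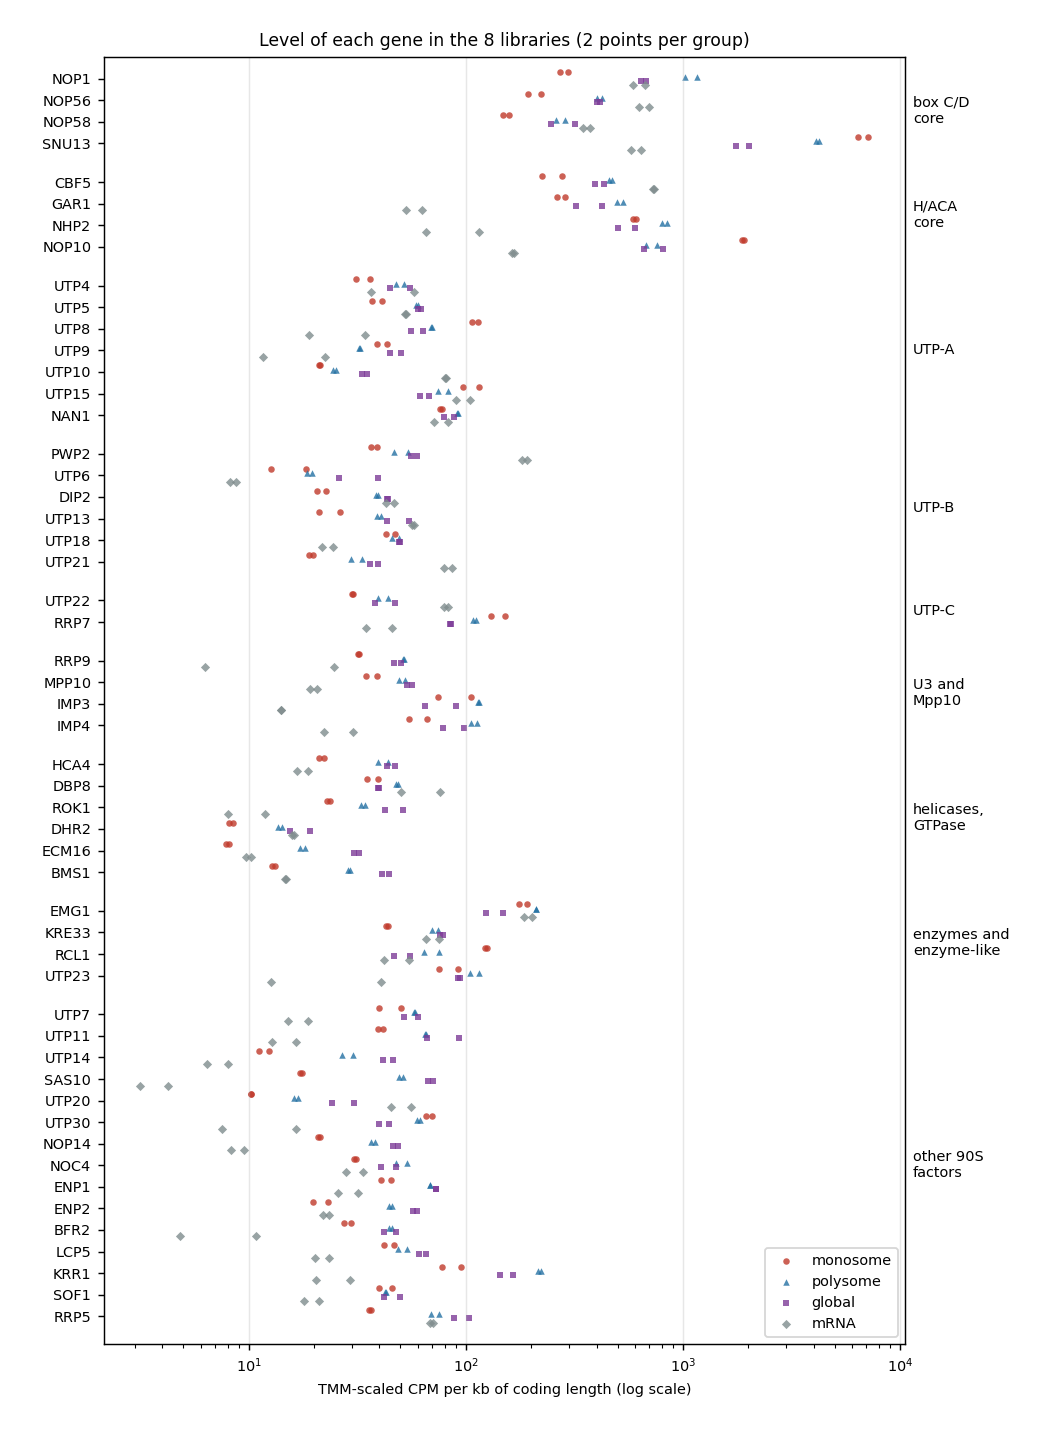
Level of each of the 52 genes in TMM-scaled CPM per kb of coding length (log axis) in the 8 libraries, with 2 points for each of monosome, polysome, global and mRNA libraries and genes grouped by role. Snu13 is highest in every kind of footprint library, at 6765 CPM per kb in monosomes, and the mRNA points range from 3.70 CPM per kb for SAS10 to 732 CPM per kb for CBF5.

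The first comparison asked which of these mRNAs took a larger or smaller share of the footprints in monosomes than in polysomes. As shares within a library, the values cannot say whether a gene had more of its ribosomes in one fraction or the other. Of the 52 genes, 41 were lower and 7 higher in monosomes (edgeR adjusted p under 0.05), and 4 did not pass. Over all 5336 genes tested, 33.5% were lower and 36.6% higher. The median log2 fold change was -0.63 over the 52 genes and 0.05 over all genes tested. Of the 41, 7 were at least 2-fold lower, and 1 of the 7 higher genes was at least 2-fold higher. Among all 5336 genes tested, 426 were called at least 2-fold lower and 915 at least 2-fold higher. Directions depend on the scaling. With scaling by library totals alone the median over all genes moved to 0.50 and that of the 52 genes to -0.18. The distance between them stayed at -0.68, while the calls among the 52 became 21 lower and 13 higher. Those over all genes tested became 867 lower and 3030 higher. With that scaling 9 of the 52 genes that were called here changed sign. With only genes of a mean of at least 100 counts, which left out UTP6, the distance was -0.44, the median of the 52-gene list -0.42 and the calls 32 lower and 9 higher. UTP10 (0.02) and EMG1 (0.04) changed sign there, and DBP8, IMP3, NAN1, PWP2, UTP23 and UTP7 did not pass.

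The box C/D core was divided. NOP1, the methyltransferase of the particle known in animals as fibrillarin (chromosome IV, 427364 to 428347, R64 assembly), had 292 and 266 CPM in monosomes, against 1144 and 1005 CPM in polysomes. The groups lay far apart, and its value of -1.95 on the log2 scale (SE 0.12, adjusted p = 1.73e-28 by edgeR) was the lowest of the 52. NOP56 (YLR197W), 1 of the paired scaffold proteins of the particle, had 336 and 294 CPM in monosomes and 639 and 610 CPM in polysomes (-0.99, SE 0.11, adjusted p = 2.32e-13 by edgeR). NOP58 (YOR310C), its partner, had 242 and 227 CPM in monosomes and 438 and 399 CPM in polysomes (-0.84, SE 0.11). SNU13, a short gene of 381 nt, went the other way, with 2726 and 2429 CPM in monosomes and 1569 and 1621 CPM in polysomes (0.69, SE 0.12, adjusted p = 1.77e-07 by edgeR). Both monosome libraries of SNU13 exceeded both polysome libraries. Such separation was common, as 2354 of the 5336 genes tested had both monosome libraries above both polysome libraries and 2149 had both below.

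The H/ACA core was divided in the same way. CBF5 had 402 and 327 CPM in monosomes and 685 and 660 CPM in polysomes (-0.88, SE 0.11, adjusted p = 2.62e-11 by edgeR). GAR1 (YHR089C), a protein with glycine- and arginine-rich tails that binds Cbf5, had 177 and 162 CPM in monosomes and 327 and 309 CPM in polysomes (-0.91, SE 0.10). NHP2, a relative of Snu13, had 287 and 279 CPM in monosomes and 396 and 378 CPM in polysomes (-0.45, SE 0.10), a call that was lost with library totals (-0.00). NOP10, the smallest of the 52 genes at 177 nt, had 339 and 333 CPM in monosomes and 134 and 119 CPM in polysomes (1.41, SE 0.10, adjusted p = 2.57e-24 by edgeR). It had the highest log2 fold change of the 52, and its groups did not overlap.

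The UTP-A subcomplex, which in yeast also takes part in rDNA transcription, held 3 of the 7 listed genes that were higher in monosomes. They were 42.9% of its own 7 genes, near the 36.6% over all 5336 genes tested and above the 13.5% of the 52. UTP8 (YGR128C), 2142 nt long, had 230 and 243 CPM in monosomes and 149 and 148 CPM in polysomes (0.67, SE 0.10, adjusted p = 1.91e-09 by edgeR). UTP15 (YMR093W) had 177 and 150 CPM in monosomes and 128 and 114 CPM in polysomes (0.42, SE 0.10, adjusted p = 6.97e-05 by edgeR). UTP9 (YHR196W) had 67.6 and 74.9 CPM in monosomes and 56.2 and 55.8 CPM in polysomes (0.35, SE 0.11, adjusted p = 0.00231 by edgeR). In all 3 genes the lower monosome library lay above the higher polysome library, as in 2354 of the 5336 genes tested. UTP4 (YDR324C, -0.56) and UTP5 (YDR398W, -0.61) were lower in monosomes, with 71.1 and 79.5 CPM in monosomes and 114 and 117 CPM in polysomes for UTP5. Calls for both were lost with library totals (-0.11 and -0.15). The remaining UTP-A genes were close to the threshold. NAN1 (YPL126W) was at -0.26, and at -0.20 without monosome replicate 2, -0.22 without polysome replicate 1 and -0.26 without polysome replicate 2, none of which passed. UTP10 (YJL109C), a long helical-repeat protein, was at -0.23, and at -0.17 to -0.25 with 1 of the 4 libraries left out in turn, where it did not pass. The UTP10 call was lost also with RLE factors and with DESeq2. With library totals NAN1 (0.20) and UTP10 (0.23) passed as higher.

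In UTP-B, 5 of 6 genes were lower in monosomes, and UTP18 (YJL069C, -0.08, adjusted p = 0.481 by edgeR) did not pass. UTP-B proteins carry WD40 or TPR repeats and contact U3 and the leading end of the transcript. DIP2 (YLR129W) was lowest, with 64.3 and 58.1 CPM in monosomes and 112 and 109 CPM in polysomes (-0.85, SE 0.10, adjusted p = 8.45e-13 by edgeR), and UTP13 (YLR222C, -0.76) and UTP21 (YLR409C, -0.70) were near it. PWP2 (YCR057C) was at -0.41, lost without polysome replicate 1 (-0.26) and with library totals (0.05), and UTP6 (YDR449C) at -0.33, lost without monosome replicate 2 (-0.02) and without polysome replicate 1 (-0.26) or 2 (-0.36), at -0.56 without monosome replicate 1, and lost with RLE factors (-0.30), DESeq2 (-0.28) and library totals (0.13). With library totals UTP18 passed as higher (0.38). Both UTP-C genes passed in opposite directions. UTP22 (YGR090W) had 111 and 113 CPM in monosomes and 163 and 146 CPM in polysomes (-0.46, SE 0.10; -0.01 with library totals), and its partner RRP7 (YCL031C) had 135 and 116 CPM in monosomes and 100 and 96.3 CPM in polysomes (0.35, SE 0.09, adjusted p = 0.000625 by edgeR).

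Proteins of the U3 particle and the Mpp10 complex, which help U3 pair with the pre-rRNA, were lower in monosomes in 4 of 4 genes. IMP4 (YNL075W) had 58.0 and 47.6 CPM in monosomes and 98.1 and 92.4 CPM in polysomes (-0.86, SE 0.10, adjusted p = 5.25e-12 by edgeR). RRP9 (YPR137W), the U3-specific protein, was at -0.69 and MPP10 (YJR002W) at -0.48, and with library totals at -0.23 and -0.02, where neither passed. IMP3 (YHR148W), a relative of a ribosomal protein of the small subunit, had 58.4 and 41.0 CPM in monosomes and 62.8 and 63.3 CPM in polysomes (-0.36, SE 0.11, adjusted p = 0.00351 by edgeR). That call rested on monosome replicate 2, without which the value was -0.07. It was -0.59 without monosome replicate 1 and 0.09 with library totals. The IMP3 call was lost with library totals and with DESeq2.

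Helicases and the GTPase Bms1 were lower in monosomes in 6 of 6 genes. BMS1 (YPL217C) had 47.1 and 45.3 CPM in monosomes and 104 and 101 CPM in polysomes (-1.16, SE 0.10, adjusted p = 4.53e-18 by edgeR). ECM16 (YMR128W), the DEAH-box helicase Dhr1 that releases U3, had 30.0 and 30.7 CPM in monosomes and 65.5 and 69.1 CPM in polysomes (-1.15, SE 0.11, adjusted p = 9.51e-16 by edgeR). HCA4 (YJL033W), the DEAD-box helicase Dbp4, followed at -0.94, DHR2 at -0.75 and ROK1 (YGL171W), a DEAD-box helicase, at -0.53. DHR2 and ROK1 were lost with library totals (-0.30 and -0.07). DBP8 (YHR169W) was nearest to 0 at -0.38, and did not pass without monosome replicate 2 (-0.26) or with library totals (0.08).

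RCL1 (YOL010W), a cyclase-like protein that is the partner of Bms1, had 135 and 138 CPM in monosomes and 70.6 and 83.0 CPM in polysomes (0.83, SE 0.10, adjusted p = 8.04e-13 by edgeR), so the 2 partners lay on opposite sides. KRE33 (YNL132W), the acetyltransferase of small subunit rRNA, had 139 and 135 CPM in monosomes and 235 and 222 CPM in polysomes (-0.74, SE 0.10, adjusted p = 9.35e-11 by edgeR). UTP23 (YOR004W), a protein with a PIN domain, was at -0.40 and lost without monosome replicate 2 (-0.22) and with library totals (0.06). EMG1 (YLR186W), an rRNA methyltransferase, was at -0.20, with adjusted p = 0.0482 by edgeR, and lost without monosome replicate 2 (-0.10) or polysome replicate 1 (-0.18) or 2 (-0.20). The EMG1 call was lost also with RLE factors and with DESeq2. With library totals EMG1 passed as higher (0.25).

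Of the 15 other factors 12 were lower in monosomes, and LCP5 (YER127W), SOF1 (YLL011W) and UTP30 (YKR060W) did not pass. With library totals LCP5 was at 0.24, and SOF1 (0.45) and UTP30 (0.61) passed as higher. SAS10 had 31.5 and 32.3 CPM in monosomes and 94.3 and 90.3 CPM in polysomes (-1.53, SE 0.11, adjusted p = 2.80e-23 by edgeR). KRR1 (YCL059C), a KH-domain protein, had 90.6 and 73.8 CPM in monosomes and 204 and 211 CPM in polysomes (-1.34, SE 0.10), and UTP14 (YML093W), which activates Dhr1, 33.5 and 30.2 CPM in monosomes and 72.6 and 81.2 CPM in polysomes (-1.28, SE 0.11). In these 3 genes the polysome libraries were more than 2-fold above the monosome libraries. ENP2 (YGR145W, -1.07), RRP5 (YMR229C, -0.99), which acts in both subunits' pathways, NOP14 (YDL148C, -0.83) and its partner NOC4 (YPR144C, -0.72), UTP20 (YBL004W, -0.69), UTP11 (YKL099C, -0.69), BFR2 (YDR299W, -0.66), ENP1 (YBR247C, -0.66) and UTP7 (YER082C, -0.37) were also lower. UTP7 was lost without monosome replicate 2 (-0.17), with DESeq2 (-0.34) and with library totals (0.08). With library totals UTP11 (-0.23), BFR2 (-0.21) and ENP1 (-0.21) were lost as well. All 7 genes that were higher in monosomes (NOP10, RCL1, SNU13, UTP8, UTP15, RRP7 and UTP9) passed under each of the 11 alternatives run for this comparison.

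**Figure D2:**
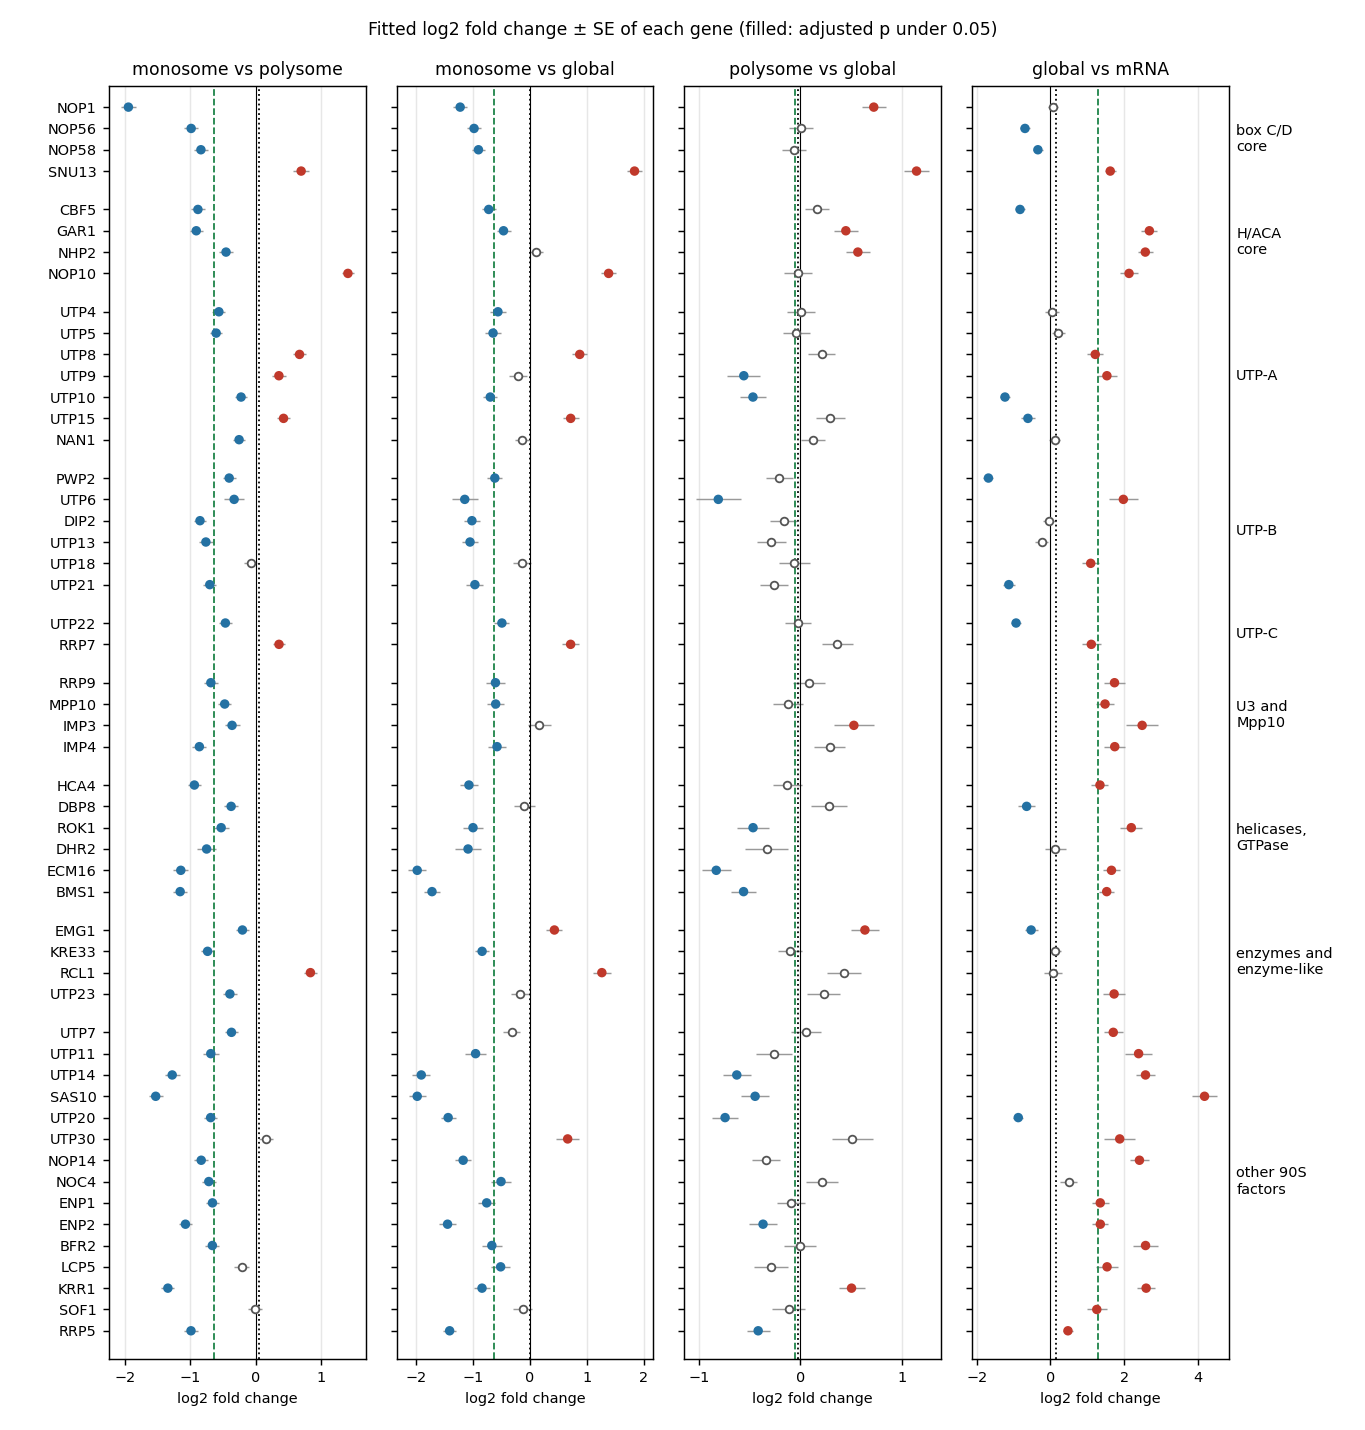
Fitted log2 fold change with its SE for each of the 52 genes in the 4 comparisons, filled where the edgeR adjusted p was under 0.05 (red higher, blue lower) and open where it was not, with the median of the 52 genes (green dashes) and of all tested genes (black dots). In the first panel 41 genes lie left and 7 right of 0 as called, and in the last 31 lie right and 11 left.

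Genes up to 600 nt had the highest monosome to polysome ratios and those over 2400 nt the lowest, over all tested genes as among the 52. Within each of 4 length classes the median of the 52 genes lay below that of all tested genes, with no test of the difference. Among genes up to 600 nt the median log2 fold change was 0.16 over the 4 listed genes and 0.46 over all 799. Over 600 and up to 1200 nt it was -0.40 over the 11 listed genes and -0.01 over all 1689. From there up to 2400 nt it was -0.61 over the 23 listed genes and 0.02 over all 1935, of which 18 listed genes and 34.9% of all were called lower. Beyond 2400 nt it was -0.75 over 14 listed genes and -0.18 over all 841. There 14 of 14 were called lower, against 41.9% of all genes of that class. UTP8, UTP9 and UTP15 belong to the class of 1200 to 2400 nt and were its only listed genes called higher. In 4 equal classes of mRNA abundance per kb, from low to high, the medians were -0.97, -0.61, -0.63 and -0.46 over the listed genes (4, 14, 18 and 16 genes), against 0.27, 0.06, 0.05 and -0.33 over all genes of the class. In the highest class 13 of the 16 were called lower and 54.9% of all.

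**Figure D3:**
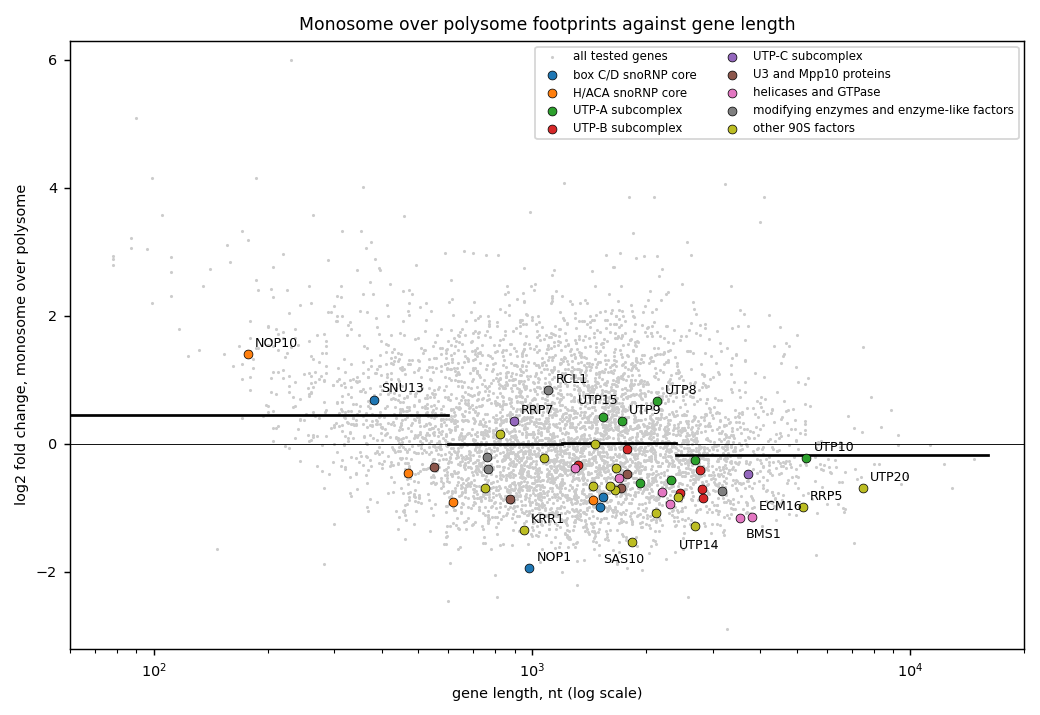
Log2 fold change of monosome over polysome footprints against gene length in nt (log axis) for all tested genes with a length (grey) and the 52 genes (coloured by role), with black bars at the median of all tested genes in 4 length classes. Most coloured points lie below the bars, with the short genes NOP10 and SNU13 and the mid-length RCL1, UTP8, UTP15, UTP9 and RRP7 above 0.

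Other genes of the same pathway, 43 genes for further pre-ribosome factors, small subunit maturation and snoRNP assembly, were lower in monosomes in 32 cases and higher in 2 (median -0.77). NSR1, the yeast nucleolin (-1.62), and the casein kinase subunit gene CKB1 (-1.57) were the lowest called, and TAH1 (0.41) and RRT14 (0.32) the highest. Of 64 assembly factors of the large subunit, 58 were lower and 2 higher (median -0.70), with DRS1 at -1.81 and URB2 at 0.42. The share of genes higher in monosomes was thus 13.5% among the 52 genes, 4.65% among the 43 and 3.12% among the 64, and the difference between the lists was not tested.

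Monosome and global footprints were compared to place single ribosomes beside the whole extract. Of the 52 genes, 35 were lower and 8 higher in monosomes, with a median log2 fold change of -0.63, against 24.3% lower, 22.2% higher and a median of 0.00 over all genes tested. SAS10 had 31.5 and 32.3 CPM in monosomes and 123 and 129 CPM in global footprints (-1.97, SE 0.15, adjusted p = 8.39e-21 by edgeR). ECM16 had 30.0 and 30.7 CPM in monosomes and 117 and 123 CPM in global footprints (-1.97, SE 0.15), and UTP14 and BMS1 were at -1.90 and -1.72. The long genes UTP20 and RRP5, of 7482 and 5190 nt, were at -1.43 and -1.41. In the snoRNP cores NOP1 was at -1.22, NOP56 at -0.98, NOP58 at -0.90, CBF5 at -0.72 and GAR1 at -0.46 (-0.24 and not passed without global replicate 1), while NHP2 did not pass (0.11).

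The 8 higher genes were led by SNU13, with 2726 and 2429 CPM in monosomes and 766 and 671 CPM in global footprints (1.84, SE 0.13, adjusted p = 2.21e-23 by edgeR). NOP10 had 339 and 333 CPM in monosomes and 117 and 143 CPM in global footprints (1.38, SE 0.13), and RCL1 had 135 and 138 CPM in monosomes and 61.1 and 51.5 CPM in global footprints (1.27, SE 0.16). UTP8 (0.88), UTP15 (0.72) and RRP7 (0.72) passed as well. UTP30, a relative of a large subunit protein, was at 0.67 and did not pass without global replicate 2 (0.59). EMG1 was at 0.43 and did not pass without global replicate 1 (0.29). Among the other roles UTP6 was lowest of UTP-B (-1.14), and not called without global replicate 1 (-0.78), RRP9 lowest of the U3 and Mpp10 proteins (-0.60; -0.55 and not called without global replicate 1), KRE33 lowest of the enzymes (-0.84) and UTP10 lowest of UTP-A (-0.69). UTP22 was at -0.49, and at -0.35 without global replicate 2, where it did not pass. UTP4 (-0.43) and NOC4 (-0.42) did not pass without that library either, nor IMP4 (-0.40) and BFR2 (-0.57) without global replicate 1, and LCP5 passed with all libraries (-0.51) but not without either global replicate (-0.57 and -0.48).

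Polysome and global footprints differed less. Of the 52 genes, 7 were higher and 11 lower in polysomes, with a median of -0.05, against 13.5% higher, 10% lower and a median of -0.02 over all genes tested. With library totals, under which the median of all genes became -0.46, 2 were higher and 35 lower, and 3 were lower without global replicate 1 and 6 without polysome replicate 2. The 7 higher genes had coding lengths under 1200 nt, a class of 15 listed genes with a median of 0.45, and none of those 15 was lower. Over all genes, 23.8% of those up to 600 nt and 21.7% of those from there to 1200 nt were higher, and 10% and 5.86% lower. They included SNU13 (1.15, SE 0.13; 1569 and 1621 CPM in polysomes, against 766 and 671 CPM among global footprints), NOP1 (0.73, SE 0.12), EMG1 (0.64), NHP2 (0.57), IMP3 (0.53), KRR1 (0.51) and GAR1 (0.45). With library totals SNU13 and NOP1 were still higher, and the other 5 did not pass. That scaling gave 181 genes higher and 2002 lower over all 5336 tested. Without global replicate 1 EMG1 (0.51) and KRR1 (0.41), and without global replicate 2 IMP3 (0.34) and GAR1 (0.29), did not pass; IMP3 was lost also without polysome replicate 1 (0.52). Without global replicate 1 IMP3 was at 0.83 and GAR1 at 0.69.

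Of the 11 lower genes, 6 were among the 14 listed genes over 2400 nt and 5 among the 23 from 1200 to 2400 nt, whereas 16.8% and 10.3% of all genes of these classes were lower. ECM16 had 65.5 and 69.1 CPM in polysomes, against 117 and 123 CPM among global footprints (-0.83, SE 0.14, adjusted p = 1.67e-06 by edgeR). UTP20 had 126 and 121 CPM in polysomes, against 228 and 182 CPM among global footprints (-0.74, SE 0.12), and BMS1 104 and 101 CPM in polysomes, against 147 and 157 CPM among global footprints (-0.56, SE 0.13). For all 11 the mean level in global footprints lay above that in either fraction, as it did for some listed genes not called lower. Both comparisons share the global libraries. SNU13 lay the other way, called higher than global in monosomes and in polysomes, and so did EMG1 (0.43 and 0.64). Mean levels of IMP3, NHP2, RCL1, RRP7, UTP8, UTP15 and UTP30 also lay above global in both fractions, but without calls in both. UTP6 (-0.81; -0.43 and not called without global replicate 1) and UTP9 (-0.56; -0.45 and not called without global replicate 1) were the lowest of UTP-B and UTP-A. ENP2 (-0.37), ROK1 (-0.47), SAS10 (-0.45), UTP10 (-0.47), RRP5 (-0.42) and UTP14 (-0.63) each lost the call without global replicate 1, at -0.39, -0.60, -0.47, -0.42, -0.28 and -0.53 in that order. Other settings mattered too. Without polysome replicate 2, ENP2, ROK1, SAS10, UTP10 and RRP5 did not pass. ENP2, ROK1 and SAS10 did not pass without global replicate 2, nor ENP2 without polysome replicate 1 or with no low-count filter. DESeq2 lost ENP2 and ROK1. Of the 11, ECM16, BMS1 and UTP20 passed without any 1 library.

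Global footprints against mRNA gave the translational efficiency, the footprints of a gene per unit of its mRNA. Of the 52 genes, 31 were higher in footprints and 11 lower, with a median log2 ratio of 1.30, against 34.8% higher, 31% lower and a median of 0.15 over all genes tested. The share higher was 59.6% among the 52 genes. It was 88.4% among the 43 other genes of the pathway (median 2.06) and 73.4% among the 64 large subunit factors (median 1.48). With library totals the median over all genes moved to 0.91 and that of the 52 genes to 2.06, with 42 of the 52 higher and 3 lower. That scaling gave 2906 genes higher and 1028 lower over all 5336 tested. Of the 31 called higher with TMM scaling, 30 were at least 2-fold higher, as were 1520 of the 1855 called higher over all genes tested. SAS10 had 123 and 129 CPM in global footprints and 7.76 and 5.81 CPM in mRNA (4.18, SE 0.33, adjusted p = 1.05e-20 by edgeR). This rests on 5 and 3 mRNA fragments, and the ratio of its TMM-scaled levels was 18.2 (95% exact interval 9.09 to 42.9, counting error only). BFR2, UTP14, NOP14, KRR1 and UTP11 were at 2.58, 2.58, 2.42, 2.60 and 2.39, each with 13 to 28 mRNA fragments in all. All 4 U3 and Mpp10 genes passed, from MPP10 (1.48) to IMP3 (2.49, 9 mRNA fragments in all). RRP9, with 7 and 22 mRNA fragments, was at 1.74, and at 1.04 without mRNA replicate 1 and 3.0 without mRNA replicate 2.

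Of the 11 genes that were lower in footprints, PWP2 was lowest. It had 165 and 155 CPM in global footprints and 528 and 503 CPM in mRNA (-1.69, SE 0.14, adjusted p = 1.47e-20 by edgeR). UTP10 had 185 and 177 CPM in global footprints and 427 and 430 CPM in mRNA (-1.24, SE 0.13), and UTP21 102 and 112 CPM in global footprints and 242 and 223 CPM in mRNA (-1.13, SE 0.16). These 3 stayed lower with library totals, and in each the footprint libraries lay below the mRNA libraries, as in 2000 of the 5336 genes tested. UTP22 (-0.93), UTP20 (-0.88), CBF5 (-0.83), NOP56 (-0.69), DBP8 (-0.65), UTP15 (-0.61), EMG1 (-0.53) and NOP58 (-0.34) were called lower with TMM scaling but not with library totals. Library totals turned NOP56 (0.07), DBP8 (0.11), UTP15 (0.15), EMG1 (0.24) and NOP58 (0.42) positive, and NOP58 then passed as higher. DBP8 was lost without global replicate 1 (-0.61) or mRNA replicate 2 (-0.29), UTP15 without global replicate 1 (-0.50) or mRNA replicate 1 (-0.43), EMG1 without global replicate 1 (-0.35) or mRNA replicate 1 (-0.40), and NOP58 without global replicate 2 (-0.14) or mRNA replicate 1 (-0.22). NOP1 (0.07) did not pass. GAR1 (2.69), NHP2 (2.58), NOP10 (2.13), SNU13 (1.62), ROK1 (2.19), UTP6 (1.98), UTP23 (1.73), UTP9 (1.53) and RRP7 (1.11) were higher. The ratio also went with gene length over all genes tested, with a median of 1.65 up to 600 nt (67.2% higher). From there to 1200 nt the median was 0.51 (41.4% higher), to 2400 nt -0.29 (39.8% lower) and beyond 2400 nt -0.33 (42.1% lower). Medians of the listed genes in these 4 classes were 2.31, 1.73, 1.26 and 0.05, with no test. SNU13 lay below the median of all genes of its class. UTP23, with 20 and 5 mRNA fragments, was at 2.94 without mRNA replicate 1 and 1.26 without mRNA replicate 2.

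In UTP-A, UTP-B and the H/ACA core, subunits differed less in global footprints than in mRNA. In UTP-B the 6 genes ranged from 32.7 to 57.7 CPM per kb in global footprints, with a coefficient of variation of 19.9%, and from 8.50 to 186 CPM per kb in mRNA, with 95.3%. Without UTP6, which had 13 mRNA fragments in all, the coefficients were 15.5% in global footprints and 81.0% in mRNA. In UTP-A they were 27.2% in global footprints (34.2 to 83.8 CPM per kb) and 51.9% in mRNA (17.0 to 97.5 CPM per kb). In the H/ACA core they were 31.4% in global footprints (373 to 734 CPM per kb) and 121% in mRNA (58.0 to 732 CPM per kb), and 32.6% and 52.6% without CBF5. For the 4 U3 and Mpp10 genes they were 27.8% in global footprints and 28.8% in mRNA, but 57.5% in mRNA replicate 1 alone and 22.4% in mRNA replicate 2 alone. In the box C/D core they were larger in footprints, with 90.7% in global footprints and 24.5% in mRNA, and 42.6% and 30.0% without SNU13. The coefficients in monosomes were 59.3% for UTP-A, 42.8% for UTP-B and 103% for the H/ACA core, against 41.7%, 30.0% and 26.8% in polysomes. Without NOP10 the H/ACA coefficient was 52.01% in monosomes, 32.4% in polysomes and 21.0% in global footprints. In these 3 complexes subunits therefore differed most in monosomes among the 3 kinds of footprint library. The U3 and Mpp10 genes (48.4% in monosomes and 42.9% in polysomes) and the box C/D core (177% and 123%) did so too. Without SNU13 the box C/D coefficients were 30.6% in monosomes and 74.0% in polysomes, so the order did not hold there. These are descriptions over a few genes, with no test, and the part of mRNA counting error in them was not tested. Of the 5264 tested genes with a length, 47 had no fragment in either mRNA library.

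**Figure D4:**
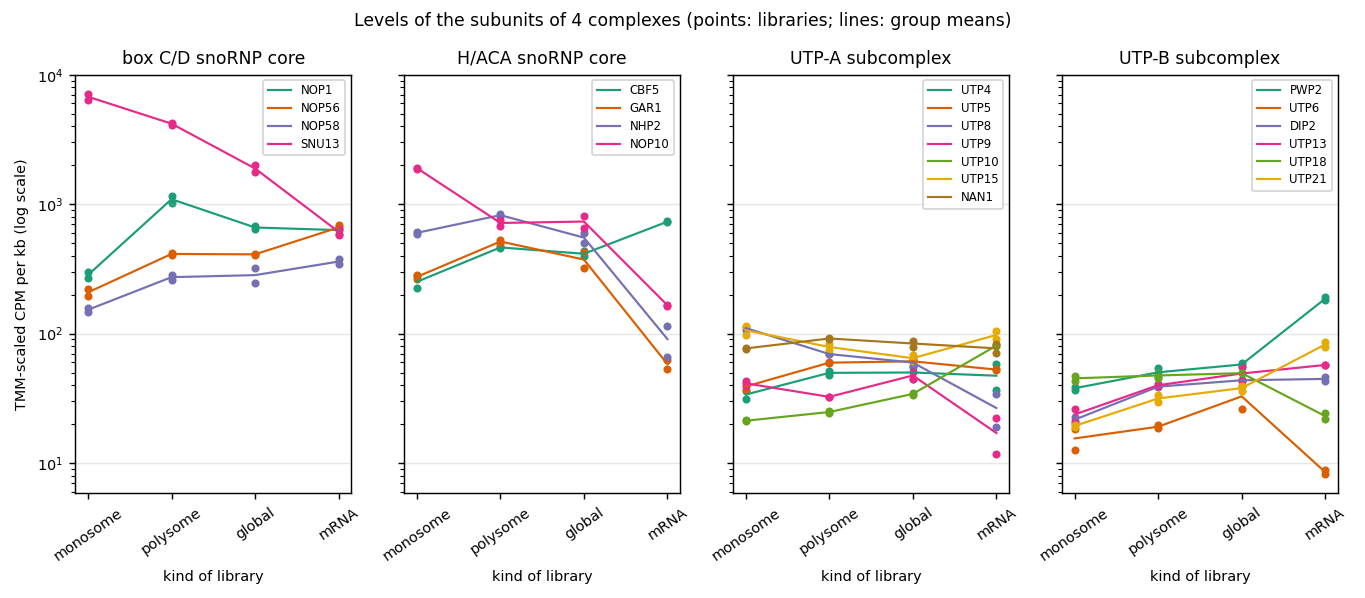
TMM-scaled CPM per kb (log axis) of each subunit of 4 complexes in monosome, polysome, global and mRNA libraries, with points for the 2 libraries of a group and lines joining group means. UTP-B subunits lie between 32.7 and 57.7 CPM per kb in global footprints and between 8.50 and 186 CPM per kb in mRNA, and SNU13 and NOP10 lie above their partners in monosomes.

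A DESeq2 comparison is given in the authors' deposited table without its name, and its sign follows monosome over polysome. Of the 52 genes, 40 were lower and 6 higher in the authors' deposited table. All 46 had the same direction with edgeR. The comparison was identified by that direction and both start from the same counts, so the match is no independent evidence. UTP6 and UTP9, at -0.36 and 0.28 in the authors' deposited table, passed with edgeR but not there, whereas UTP18, LCP5, SOF1 and UTP30 passed in neither. NOP1 was at -1.99 in the authors' deposited table and NOP10 at 1.33.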

How the data were processed

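Footprints from monosome, polysome and all ribosomes, and mRNA fragments depleted of rRNA with RiboZero, were sequenced in 2 libraries each. The authors deposited whole-number counts per gene. TopHat, Bowtie, HTSeq, DESeq2 and the build sacCer3 are named in the submitters' processing notes without versions, and strand and multimapping settings are not given in the sources used here. The authors also deposited log2 fold changes and adjusted p-values from DESeq2, per the file headers, without naming the comparison. The 52 genes and the 2 comparison lists were chosen with earlier results of these data known. Here edgeR 4.0.16 in R 4.3.3 fitted all 8 libraries in 4 groups with TMM factors after a low-count filter (minimum count 10, total 15), which left 5336 genes, and its quasi-likelihood F test was adjusted by Benjamini-Hochberg over them (threshold 0.05). The SE printed is the absolute log2 fold change over the square root of F, so it restates the test. Coding lengths and NOP1's position came from the RefSeq R64 table, which matched 6008 identifiers and left 684 unmatched. All genes of each snoRNP core, the extremes of each role and genes against the common direction were named by rule, and others were added for completeness. On simulated data for monosome over polysome with 5295 genes, 60% of genes with a log2 change of -0.5 were recovered, 80% at 0.5, and 100% at 1 and at 2. Replicates differed by more than counting noise in every group (chi-square per degree of freedom 1.49 to 5.42). Alternatives were RLE and library-total scaling, no filter or a mean of at least 100 counts, DESeq2 1.42.0, only the 4 libraries compared, a replicate block and leaving out each library. Promoter and protein sequences were not used here.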

Additional observations from a re-analysis of the deposited data

How the results depend on the processing

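Library totals in place of TMM factors moved counts in 3 comparisons and left monosome over global at 8 higher and 35 lower. Monosome over polysome then gave 13 genes higher and 21 lower, and polysome over global 2 higher and 35 lower. Global over mRNA gave 42 higher and 3 lower. Calls over all 5336 genes tested were 3030 higher and 867 lower, 181 and 2002, and 2906 and 1028 in the same order. In monosome over polysome library totals turned 12 of the 52 genes positive, 9 of them called lower with TMM. Among the 12 were IMP3 (0.092), DBP8 (0.078), UTP6 (0.13), UTP23 (0.057) and, not called, UTP18 (0.38), LCP5 (0.24) and SOF1 (0.45). In polysome over global they turned 14 genes negative, none called with TMM, among them RRP7 (-0.084), DBP8 (-0.17), CBF5 (-0.29), NOP56 (-0.44) and UTP15 (-0.15). In global over mRNA they turned 7 genes positive, 5 of them called lower with TMM, which were DBP8 (0.11), EMG1 (0.24), NOP56 (0.069), UTP15 (0.15) and NOP58 (0.42). The cause was not tested.

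In monosome over polysome RLE factors gave 7 higher and 38 lower, and DESeq2 7 higher and 36 lower. Over all 5336 genes tested they gave 2009 higher and 1718 lower, and 1684 higher and 1475 lower. With a mean of at least 100 counts monosome over polysome gave 9 higher and 32 lower. UTP10 (0.018) and EMG1 (0.038), called lower with the wider filter, turned positive. Under this filter UTP18 was at 0.16 in monosome over polysome, DBP8 at 0.0026 in monosome over global, NOP56 at -0.14 in polysome over global and NOP1 at -0.20 in global over mRNA. NOP56 in polysome over global was also at -0.013 with RLE factors and with DESeq2 and at -0.0038 with the 4 libraries compared, and NOP1 in global over mRNA at -0.082, -0.082 and -0.038 under these settings. With 1 library left out in turn, values ran from -0.13 to 0.023 for UTP18 in monosome over polysome. In monosome over global they ran from -0.016 to 0.25 for NHP2, -0.076 to 0.45 for IMP3 and -0.15 to 0.011 for DBP8. In polysome over global they ran from -0.12 to 0.037 for the median, -0.16 to 0.13 for NOP10, -0.13 to 0.046 for UTP18, -0.037 to 0.094 for NOP56, -0.22 to 0.16 for NOP58 and -0.17 to 0.14 for UTP22.

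Leaving out 1 library gave 7 genes higher and 33 to 40 lower in monosome over polysome, 7 to 8 higher and 29 to 36 lower in monosome over global, 5 to 8 higher and 3 to 10 lower in polysome over global (6 without polysome replicate 2, 3 without global replicate 1), and 31 to 32 higher and 8 to 10 lower in global over mRNA. A group left with 1 library was assumed to vary like the others. Whether replicate numbers pair the libraries is unknown. Correlations of deviations between libraries of the same number were -0.0084 to 0.0581. Counting noise in the global and mRNA libraries could keep small those that involve them, so these cannot decide this. Monosome against polysome, which involves neither, was at 0.0493. Pairing was not tested further. With the replicate block the counts were 7 higher and 41 lower, 8 and 35, 7 and 11, and 31 and 11 in the same order. No call among the 52 genes changed. Low mRNA counts limit global over mRNA.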
